A study of Rattus norvegicus with 30 samples.

Results

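Activins are dimers of inhibin beta chains, secreted ligands of the TGF-beta family. They bind the type II receptors Acvr2a or Acvr2b, which recruit and phosphorylate the type I receptor Acvr1b, and Acvr1b phosphorylates Smad2 and Smad3, which enter the nucleus and regulate transcription. Follistatin, the product of Fst, wraps around activins and keeps them from their receptors. In rodent hippocampus the activin A chain gene Inhba is known as a gene induced by neuronal activity, and activin is known for effects on dendritic spines and on neuron survival. The 10 genes described here are the activin chains Inhba and Inhbb, the related ligand Gdf3, the receptors Acvr1b, Acvr2a and Acvr2b, the antagonists Fst, Fstl3 and Bambi, and the follistatin-like gene Fstl1. They were taken by symbol from the 17455 gene rows of the count table, and all 10 had a row. Fst and Gdf3 were chosen by their measured difference between the genotypes in these libraries, so their genotype difference is given as a description, without a test. The other 8 were added as ligands, receptors and antagonists of the same pathway.

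RNA was measured by sequencing of polyadenylated RNA from rat dorsal hippocampus, the part of the hippocampus most tied to spatial memory. The study asked how an Alzheimer's disease genotype and a western diet shape gene expression there. The genotype labelled alzheimer is the TgF344-AD rat, a transgenic line that carries a mutated human APP gene driven by the mouse prion promoter, and the rats without it are labelled wildtype. Each genotype was fed a western diet or standard chow, and all 8 combinations of sex, genotype and diet came from 2 cohorts named in the labels. Ages are not stated in the labels. The groups, with the running library numbers of the labels as replicate numbers, were female_alzheimer_western (11, 18 and 21), female_wildtype_western (12, 17 and 22), female_alzheimer_chow (10, 14, 16 and 19), female_wildtype_chow (9, 13, 15 and 20), male_alzheimer_western (1, 6, 23 and 28), male_wildtype_western (2, 5, 24 and 27), male_alzheimer_chow (3, 8, 25 and 30) and male_wildtype_chow (4, 7, 26 and 29). The 30 libraries held 13.9 to 31.4 M counts, with M for mega. Levels are given as CPM, the counts per M counts of a library after TMM scaling. Differences are log2 fold changes ± a standard error (SE) derived from the F statistic of the edgeR test. App, the rat gene whose human counterpart is the transgene, averaged 3293 ± 76.3 CPM in alzheimer libraries and 1672 ± 52.7 CPM in wildtype libraries (SD, n = 15 each), with no overlap. Markers of pyramidal and granule neurons summed to 5192 to 6044 CPM in alzheimer libraries and 5246 to 5869 CPM in wildtype libraries, with Spink8 averaging under 1 CPM. All cell type markers called for genotype were lower in alzheimer libraries: 2 of 5 for astrocytes, 2 of 5 for pericytes and smooth muscle, 2 of 4 for endothelium, and 1 each for pyramidal and granule neurons, interneurons, oligodendrocytes and microglia. None was called for oligodendrocyte precursors, border macrophages, meningeal fibroblasts, choroid plexus or ependyma. Of all genes tested, 8.03% were called for genotype and 3.89% were called as lower. Astrocyte markers summed to a median of 2942 CPM in alzheimer libraries and 3216 CPM in wildtype libraries, and oligodendrocyte markers to a median of 10105 CPM in alzheimer libraries and 11364 CPM in wildtype libraries. The part of these cells in the genotype differences below was not tested. Choroid plexus markers, a sign of adjoining tissue, summed to 2.36 to 61.4 CPM in alzheimer libraries and 2.65 to 35.7 CPM in wildtype libraries, highest in replicates 30, 20 and 11.

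Fst, the extracellular trap of activin, was lower in every alzheimer library than in every wildtype library. In females on the western diet it had 2.39, 3.62 and 2.98 CPM in alzheimer libraries, against 5.44, 4.20 and 5.89 CPM in wildtype libraries. In females on chow it had 2.401, 1.42, 1.31 and 1.98 CPM in alzheimer libraries, against 4.81, 4.36, 4.32 and 6.78 CPM in wildtype libraries. The genotype ranges did not overlap in females on either diet. Among alzheimer females, 3 of 4 libraries on chow lay below the 3 on the western diet, and the other one lay within their range. In males on the western diet it had 2.49, 2.27, 1.41 and 2.80 CPM in alzheimer libraries, against 4.40, 4.27, 4.75 and 7.64 CPM in wildtype libraries. In males on chow it had 2.17, 2.16, 3.22 and 1.57 CPM in alzheimer libraries, against 4.06, 5.12, 4.89 and 6.94 CPM in wildtype libraries. Males showed no overlap either, so the genotypes were apart in all 4 strata of sex and diet. The alzheimer libraries ran from 1.31 to 3.62 CPM with a median of 2.27, and the wildtype libraries from 4.06 to 7.64 CPM with a median of 4.81. Summed over libraries, 653 Fst counts in alzheimer libraries stood against 1386 in wildtype libraries, a depth-scaled ratio of 0.446 (95% interval 0.406 to 0.490, counting error only). The log2 fold change was -1.16 ± 0.12, and it was -1.08 ± 0.15 in cohort 1 alone, where each female western group has 1 library, and -1.31 ± 0.19 in cohort 2 alone. These are bulk tissue values, in which fewer cells of a type and less RNA per cell cannot be told apart.

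The Fst group means are given in order as a description, since Fst was chosen by its genotype difference. The 4 wildtype groups came first, between 5.07 and 5.26 CPM, and neighbours among them differed by less than their SD. The next group, female_alzheimer_western at 2.998 ± 0.614 CPM (n = 3), was below them by more than the SD. A further step beyond the SD led to male_alzheimer_chow at 2.28 ± 0.685 CPM, followed by male_alzheimer_western at 2.25 ± 0.596 CPM and female_alzheimer_chow at 1.78 ± 0.508 CPM (n = 4 each), which did not differ from their neighbours beyond the SD.

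Gdf3, a ligand related to nodal that is best known from the early embryo and from fat tissue, was near the limit of detection in wildtype hippocampus and present in the alzheimer libraries. In females on the western diet it had 1.63, 1.42 and 0.900 CPM in alzheimer libraries, against 0, 0.168 and 0.0595 CPM in wildtype libraries. In females on chow it had 1.39, 0.177, 1.09 and 1.26 CPM in alzheimer libraries, against 0.216, 0.0440, 0 and 0.112 CPM in wildtype libraries. The second of these alzheimer libraries, replicate 14 with 3 counts, lay inside the wildtype range, and the others lay above it. In males on the western diet it had 2.38, 0.538, 1.09 and 1.40 CPM in alzheimer libraries, against 0.0489, 0, 0 and 0.0588 CPM in wildtype libraries. In males on chow it had 2.85, 1.42, 1.58 and 0.440 CPM in alzheimer libraries, against 0.0655, 0.120, 0 and 0.0534 CPM in wildtype libraries. The genotypes were apart in males on both diets, and 14 of 15 alzheimer libraries lay above the highest wildtype library. The raw counts were 3 to 55 in alzheimer libraries and 0 to 4 in wildtype libraries, 5 of which were at 0. A count of 0 there allows up to 3 counts, or 0.145 to 0.216 CPM by library. Summed over libraries, 374 Gdf3 counts in alzheimer libraries stood against 17 in wildtype libraries, a depth-scaled ratio of 20.8 (95% interval 12.8 to 36.1, counting error only), and the ratio was 22.02 in cohort 1 and 19.6 in cohort 2. The fitted log2 fold change was 4.31 ± 0.39, and it depends on the prior count, with a value of 3.04 at a prior count of 2. The SE does not cover that dependence. Gdf3 passed the filter on low counts through its alzheimer libraries.

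The order of Gdf3 group means had the 4 alzheimer groups first and no separation among them. They ran from 1.57 ± 0.988 CPM in male_alzheimer_chow through 1.35 ± 0.773 CPM in male_alzheimer_western (n = 4 each) and 1.32 ± 0.377 CPM in female_alzheimer_western (n = 3) to 0.981 ± 0.549 CPM in female_alzheimer_chow (n = 4). The highest wildtype group, female_wildtype_chow, averaged 0.0931 ± 0.0942 CPM (n = 4), lower by more than the SD. Wildtype groups did not differ from their neighbours in the order by more than their SD.

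**Figure D1:**
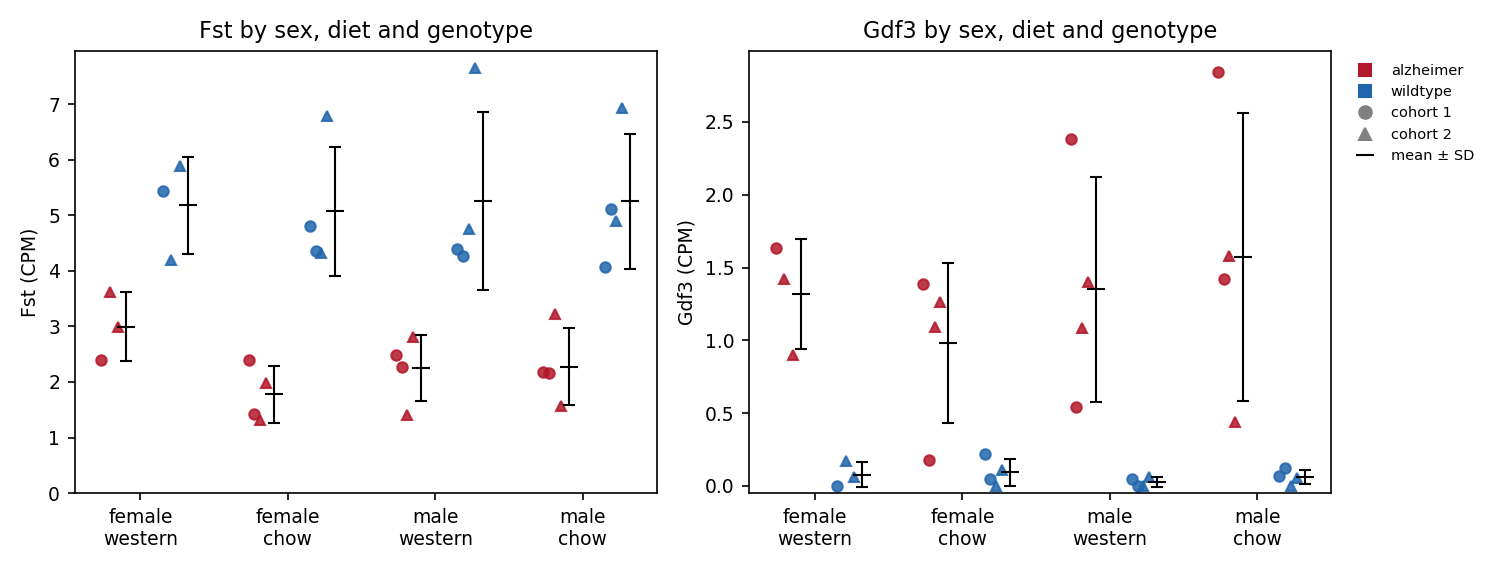
Levels of Fst and Gdf3 in CPM (vertical axes) for each of 30 libraries, by sex and diet with alzheimer left of wildtype; circles are cohort 1, triangles cohort 2, and bars are group means with SD. Fst reaches at most 3.62 CPM in alzheimer libraries and is at least 4.06 CPM in wildtype libraries, and Gdf3 exceeds 0.216 CPM in 14 of 15 alzheimer libraries.

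Diet and sex, which the choice of Fst and Gdf3 did not use, gave no called difference for either gene. Fst averaged 2.57 ± 0.682 CPM in alzheimer libraries on the western diet (n = 7) and 2.03 ± 0.619 CPM in alzheimer libraries on chow (n = 8), a log2 fold change of 0.32 ± 0.19 (edgeR adjusted p = 1.0). In wildtype libraries it averaged 5.23 ± 1.24 CPM on the western diet (n = 7) and 5.16 ± 1.10 CPM on chow (n = 8), a log2 fold change of -0.0043 ± 0.16 (edgeR adjusted p = 1.0). The difference between those diet effects was 0.32 ± 0.24 (95% interval -0.17 to 0.82, edgeR adjusted p = 1.0). The sex difference of Fst was -0.0016 ± 0.12, female minus male, with a 95% interval of -0.25 to 0.25. Gdf3 averaged 1.34 ± 0.589 CPM in alzheimer libraries on the western diet (n = 7) and 1.28 ± 0.804 CPM in those on chow (n = 8), a log2 fold change of 0.10 ± 0.33 (edgeR adjusted p = 1.0). It averaged 1.12 ± 0.480 CPM in female alzheimer libraries (n = 7) and 1.46 ± 0.830 CPM in male alzheimer libraries (n = 8), a log2 fold change of -0.30 ± 0.33 (edgeR adjusted p = 0.887).

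Among the 8 genes not picked for their values, 7 could be tested for genotype and Acvr1b alone was called, at a Benjamini-Hochberg adjusted p under 0.05 in edgeR's quasi-likelihood test. Of all 12547 genes tested, 8.03% were called and 4.14% were called as higher, so 1 of 7 is near that background. At an unadjusted p under 0.05 there were 2 of 7, Acvr1b and Inhba. Nothing in the labels says that each library comes from an animal of its own, so these p-values measure only how much libraries vary.

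The ligand chain Inhba, which pairs with itself to form activin A, averaged 2.84 ± 0.548 CPM in alzheimer libraries and 2.44 ± 0.553 CPM in wildtype libraries (SD, n = 15 each). Its difference of 0.24 ± 0.11 did not pass the test (edgeR adjusted p = 0.207). It was 0.23 in cohort 1 alone and 0.27 in cohort 2 alone. On chow the males had 3.62, 3.06, 2.43 and 1.63 CPM in alzheimer libraries, against 2.10, 2.35, 1.65 and 1.49 CPM in wildtype libraries, the lowest of the 8 groups. These ranges overlap through replicate 30 of the alzheimer group, which had the highest choroid plexus markers. With group and cohort means removed, Inhba and those markers had a correlation of -0.058 over 30 libraries. Their part in the Inhba value of replicate 30 was not tested. Inhbb, the chain of activin B, averaged 14.5 ± 2.06 CPM in alzheimer libraries and 14.6 ± 1.71 CPM in wildtype libraries (n = 15 each), a difference of -0.031 ± 0.052 (edgeR adjusted p = 0.796).

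Promoter sequence shows how unlike the genes of the activin A and activin B chains are just before their starts. RefSeq promoters of rat assembly GRCr8 were matched for 8 of the 10 genes, and the 250 bases before the start are printed for the activin chains and for Acvr1b, the genes whose values are followed below. Capitals mark a TATA box in Inhba and an E-box in Acvr1b.
Inhba, chr17:53804509-53804758, minus strand: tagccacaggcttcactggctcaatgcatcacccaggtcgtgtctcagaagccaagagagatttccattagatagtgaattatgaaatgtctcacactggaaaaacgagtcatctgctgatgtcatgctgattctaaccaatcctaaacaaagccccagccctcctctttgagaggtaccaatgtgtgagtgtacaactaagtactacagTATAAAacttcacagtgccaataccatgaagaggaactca
Inhbb, chr13:33089374-33089623, minus strand: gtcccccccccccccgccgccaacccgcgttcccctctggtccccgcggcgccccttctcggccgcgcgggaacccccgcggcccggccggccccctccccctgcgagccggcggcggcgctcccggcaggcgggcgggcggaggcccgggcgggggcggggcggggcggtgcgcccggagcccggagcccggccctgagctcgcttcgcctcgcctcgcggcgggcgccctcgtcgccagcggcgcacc
Acvr1b, chr7:134164751-134165000, plus strand: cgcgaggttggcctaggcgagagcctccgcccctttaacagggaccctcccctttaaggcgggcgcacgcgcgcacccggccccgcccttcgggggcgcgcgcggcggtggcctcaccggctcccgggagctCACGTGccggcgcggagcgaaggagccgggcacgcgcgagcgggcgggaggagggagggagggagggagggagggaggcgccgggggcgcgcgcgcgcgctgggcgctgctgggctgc
The Inhba window had 43.6% G and C and a TATAAA 40 bases before the start. The Inhbb window had 86.8% G and C and the Acvr1b window 79.6%. Acvr1b held the palindrome CACGTG, beginning 118 bases before the start. The letters searched on both strands were TGACGTCA for the CRE (in 1.59% of 33469 promoters of this length), TGTNNATT for FoxH1 (11.3%), CAGACA for the Smad box (17.2%), TATAAA for the TATA box (12.9%) and CACGTG for the E-box (5.59%). The only other matches among the 8 genes were a Smad box and a TATA box in Fstl3. No matches overlapped.

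Acvr1b, the type I receptor that carries the activin signal to the Smads, rose in alzheimer hippocampus by a small amount. In females on the western diet it had 84.4, 85.6 and 78.0 CPM in alzheimer libraries, against 74.0, 71.6 and 73.3 CPM in wildtype libraries. In females on chow it had 75.6, 81.2, 77.4 and 75.4 CPM in alzheimer libraries, against 69.1, 74.9, 63.7 and 73.0 CPM in wildtype libraries. Every female alzheimer library lay above the wildtype libraries of its own diet. On the western diet the female genotype ranges were also apart for Inhba, Inhbb and Acvr2a, none of them called for genotype. Male genotype ranges were apart for Bambi on the western diet, also not called, and for Fstl3 on chow, which was not tested. The share of all genes with ranges apart was not counted, here or for the diet ranges below. In males on the western diet Acvr1b had 65.8, 76.9, 77.8 and 79.2 CPM in alzheimer libraries, against 66.8, 67.0, 77.9 and 71.1 CPM in wildtype libraries. In males on chow it had 85.7, 80.9, 89.6 and 85.7 CPM in alzheimer libraries, against 83.5, 77.7, 77.4 and 79.4 CPM in wildtype libraries. The male ranges of Acvr1b overlapped on both diets. The means were 80.0 ± 5.85 CPM in alzheimer libraries and 73.4 ± 5.35 CPM in wildtype libraries (SD, n = 15 each). The log2 fold change was 0.13 ± 0.029 (edgeR adjusted p = 0.00504), with 0.11 in cohort 1 alone (adjusted p = 0.402) and 0.14 in cohort 2 alone (adjusted p = 0.0311). Within females it was 0.16 ± 0.043 (edgeR adjusted p = 0.0378, where 2.57% of genes were called) and within males 0.094 ± 0.040 (adjusted p = 0.285, where 1.25% were called). The difference between the sexes, 0.065, did not pass its own test (edgeR adjusted p = 0.999). On the western diet and on chow 0 of 7 members were called, against 3.17% and 0.901% of genes, although Acvr1b had an unadjusted p under 0.05 on each and Acvr2b on chow.

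The type II receptors, which bind the ligand first, did not pass the genotype test. Acvr2a averaged 21.9 ± 2.35 CPM in alzheimer libraries and 21.2 ± 1.42 CPM in wildtype libraries (n = 15 each), a difference of 0.055 ± 0.042 (edgeR adjusted p = 0.484). Acvr2b averaged 2.37 ± 0.572 CPM in alzheimer libraries and 2.57 ± 0.573 CPM in wildtype libraries, a difference of -0.12 ± 0.12 (edgeR adjusted p = 0.637). After removal of group and cohort means, Acvr2b moved with the summed markers of microglia and with those of oligodendrocyte precursors, with a correlation of 0.74 for each over 30 libraries that share their depth and dissection. It also moved with those of oligodendrocytes (0.58), endothelium (0.54), astrocytes (0.44) and pericytes and smooth muscle (0.40). For pyramidal and granule neurons the correlation was -0.21. Their part in the Acvr2b values was not tested.

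Neither Fstl1 nor the antagonist Bambi was called for genotype. Fstl1, a secreted relative of follistatin, averaged 21.995 ± 1.32 CPM in alzheimer libraries and 22.2 ± 1.57 CPM in wildtype libraries (n = 15 each). Its difference of -0.016 ± 0.038 (edgeR adjusted p = 0.857) had a 95% interval of -0.094 to 0.061. Bambi, a membrane pseudoreceptor that blocks signalling, averaged 0.916 ± 0.218 CPM in alzheimer libraries and 1.10 ± 0.458 CPM in wildtype libraries, a difference of -0.25 ± 0.19 (edgeR adjusted p = 0.464). Fstl3, a follistatin relative that also binds activin, had 1 to 8 counts per library and did not pass the filter on low counts. It summed to 61 counts in alzheimer libraries and 68 in wildtype libraries, a ratio of 0.849 (95% interval 0.591 to 1.22, counting error only).

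**Figure D2:**
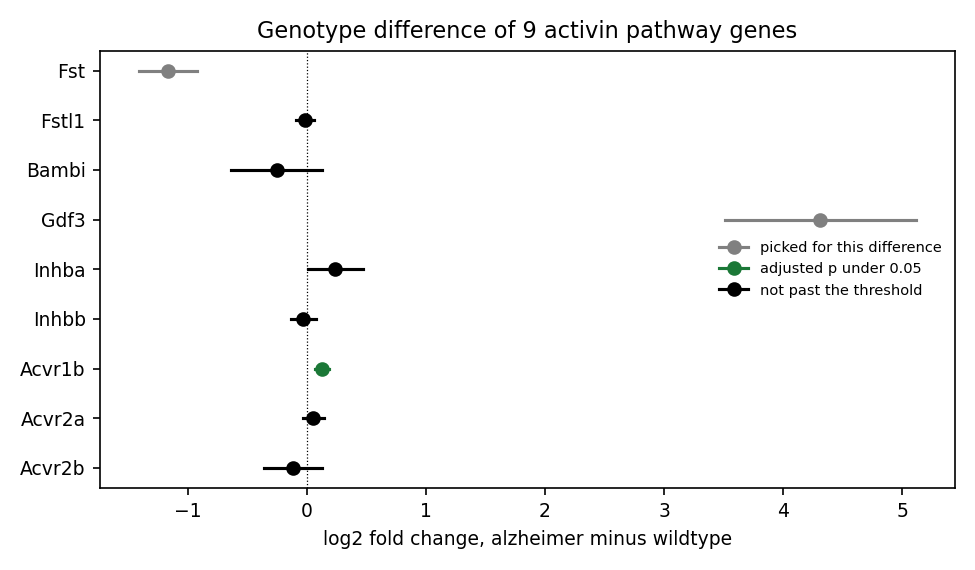
Log2 fold change, alzheimer minus wildtype (horizontal axis), with 95% intervals for the 9 tested genes of the pathway. Fst at -1.16 and Gdf3 at 4.31, in grey, were picked for this difference; of the other 7 only Acvr1b, at 0.13, passed an adjusted p of 0.05.

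The difference of Acvr1b between the diets was itself different in females and males. Females averaged 77.8 ± 5.96 CPM on the western diet (n = 6) and 73.8 ± 5.35 CPM on chow (n = 8), a log2 fold change of 0.071 ± 0.043 that did not pass the test (edgeR adjusted p = 0.618). Males averaged 72.8 ± 5.73 CPM on the western diet and 82.5 ± 4.37 CPM on chow (n = 8 each), a change of -0.18 ± 0.040 that just missed it (edgeR adjusted p = 0.0537). The 4 male alzheimer libraries on the western diet, at 65.8 to 79.2 CPM, all lay below the 4 on chow, at 80.9 to 89.6 CPM. Male wildtype libraries overlapped between 66.8 to 77.9 CPM on the western diet and 77.4 to 83.5 CPM on chow. The difference between the sexes in the diet effect was 0.25 ± 0.059 and passed the test (edgeR adjusted p = 0.0236). It made Acvr1b 1 of 9 members called, against 1.23% of all genes, and with DESeq2 and limma-voom the count was 2 of 9. The call was lost without replicate 11, 12, 15 or 18, at adjusted p-values of 0.0530, 0.0620, 0.0533 and 0.0562, and without the 3 libraries highest in choroid plexus markers (0.0615). Within cohorts the difference was 0.32 in cohort 1 (adjusted p = 0.189) and 0.21 in cohort 2 (adjusted p = 0.326), positive in both.

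Inhbb, the other member called by DESeq2 and limma-voom, had values in the same direction. In wildtype females it had 16.3, 16.5 and 16.8 CPM on the western diet, against 12.8, 12.98, 12.6 and 11.6 CPM on chow. These ranges were apart, and the wildtype females on the western diet had the highest mean of all 8 groups, 16.6 CPM. The next group, male_alzheimer_chow at 16.4 ± 1.54 CPM, was lower by less than its SD. In alzheimer females it had 12.1, 13.3 and 15.4 CPM on the western diet, against 11.1, 17.3, 13.4 and 12.7 CPM on chow, with full overlap. Males averaged 14.1 ± 1.011 CPM on the western diet and 15.99 ± 1.35 CPM on chow (n = 8 each). Replicate 14, at 17.3 CPM, stood above the other female chow libraries. The diet-by-sex difference was 0.37 ± 0.10 (edgeR adjusted p = 0.0648), with adjusted p-values of 0.0362 in DESeq2 and 0.0342 in limma-voom. It was 0.23 in cohort 1 and 0.50 in cohort 2, and without replicate 14 the adjusted p was 0.00433. Acvr2a gave 0.19 ± 0.084 in the same test (edgeR adjusted p = 0.288). In females alone and in males alone edgeR called 0 of 9 members for diet, against 0.183% and 0.128% of genes. At an unadjusted p under 0.05 there was Inhbb in females, and Inhba, Acvr1b and Inhbb in males, where DESeq2 and limma-voom called 1 member each, Acvr1b.

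**Figure D3:**
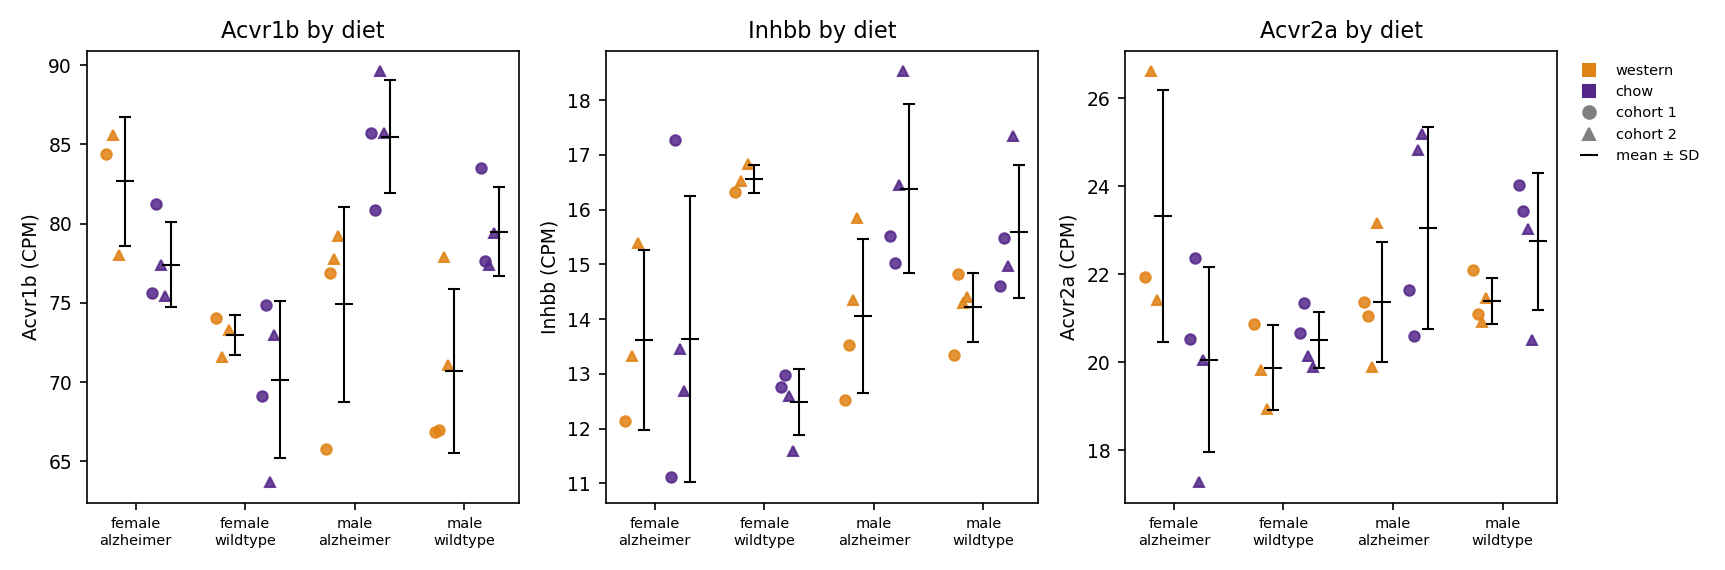
Acvr1b, Inhbb and Acvr2a in CPM (vertical axes, not starting at 0) per library by sex and genotype, western left of chow, with means and SD. Male libraries average 72.8 CPM Acvr1b on western and 82.5 CPM on chow, and wildtype females have 16.3 to 16.8 CPM Inhbb on western and 11.6 to 12.98 CPM on chow.

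Averaged over sexes and genotypes, neither diet nor sex gave a called member. For diet, edgeR called 0 of 9 members and 0.00797% of genes, with 0 members at an unadjusted p under 0.05 and 0 by DESeq2 and limma-voom. For sex, edgeR, DESeq2 and limma-voom called 0 of 9, against 0.837% of genes in edgeR, and the 1 member at an unadjusted p under 0.05 was Inhbb, at -0.11 ± 0.052, female minus male. Acvr2b had 0.24 ± 0.12 for sex (edgeR adjusted p = 0.347), and Inhba had 0.22 ± 0.11 for diet (edgeR adjusted p = 0.914). No gene in the table, and so no member, was called for genotype by diet (0% of genes, 446 at an unadjusted p under 0.05) or genotype by sex (0%, 528), and the same held in DESeq2 and limma-voom. The 1 member at an unadjusted p under 0.05 was Inhbb for genotype by diet, at -0.24. Within alzheimer libraries and within wildtype libraries 0 of 9 members were called for diet (0% of genes in each) or for sex (0.128% and 0.231%) by edgeR, DESeq2 or limma-voom. At an unadjusted p under 0.05 there were 0 members for diet, and for sex there were Inhbb in alzheimer and Acvr2a in wildtype libraries. Between cohorts 0 of 9 members were called, against 0.0877% of genes.

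Libraries of the same group also varied together in some members, a measure that the choice of Fst and Gdf3 did not use. Residual log2 CPM, with group and cohort means removed, were correlated over 30 libraries for all 36 pairs of the 9 tested members, and p-values were adjusted over the 36. Residuals were permuted freely over libraries, although removal of the means ties the residuals of a group to each other. The permutation p-values may therefore be too small. By Pearson's r 2 pairs passed, both with Gdf3, and by Spearman's rho 1 pair. Libraries with more Gdf3 had more Inhba (Pearson r = 0.71, permutation adjusted p = 0.00036; Spearman rho = 0.57, permutation adjusted p = 0.0418). Without replicates 14 and 30, the libraries farthest from the median in Gdf3, r was 0.56 (permutation p = 0.00201). It was 0.67 within cohort 1 and 0.82 within cohort 2. Among alzheimer libraries alone r was 0.77 (permutation adjusted p = 0.0157), and without those 2 libraries it was 0.46 (permutation p = 0.116). Among wildtype libraries alone, where Gdf3 had 0 to 4 counts, r was 0.65 (permutation adjusted p = 0.170). The tests over 30 libraries include these wildtype residuals, which come from counts near the floor. Gdf3 passed the filter on low counts only through its alzheimer libraries. Residual Gdf3 had a correlation of 0.34 with log2 total counts, and residual Inhba one of 0.17. The part of depth in the Gdf3 relations was not tested.

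Gdf3 and Inhbb ran in opposite directions (Pearson r = -0.61, permutation adjusted p = 0.00864; Spearman rho = -0.49, permutation adjusted p = 0.123). That relation rests on replicates 14 and 30, since without them r was -0.33 (permutation p = 0.0827). Those libraries had the lowest Gdf3 of the alzheimer libraries, 0.177 and 0.440 CPM, and Inhbb of 17.3 and 18.5 CPM. Fst and Gdf3, both picked for genotype, had r = 0.36 (permutation adjusted p = 0.320), so their residual relation did not pass the test. Residual Inhba also ran against the summed markers of microglia (r = -0.54) and endothelium (r = -0.49). The same sign held for pericytes and smooth muscle (-0.43), oligodendrocyte precursors (-0.42) and oligodendrocytes (-0.35). Residual Gdf3 ran with the markers of meningeal fibroblasts (r = 0.40). The part of these cells in the Gdf3 and Inhba relation was not tested.

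**Figure D4:**
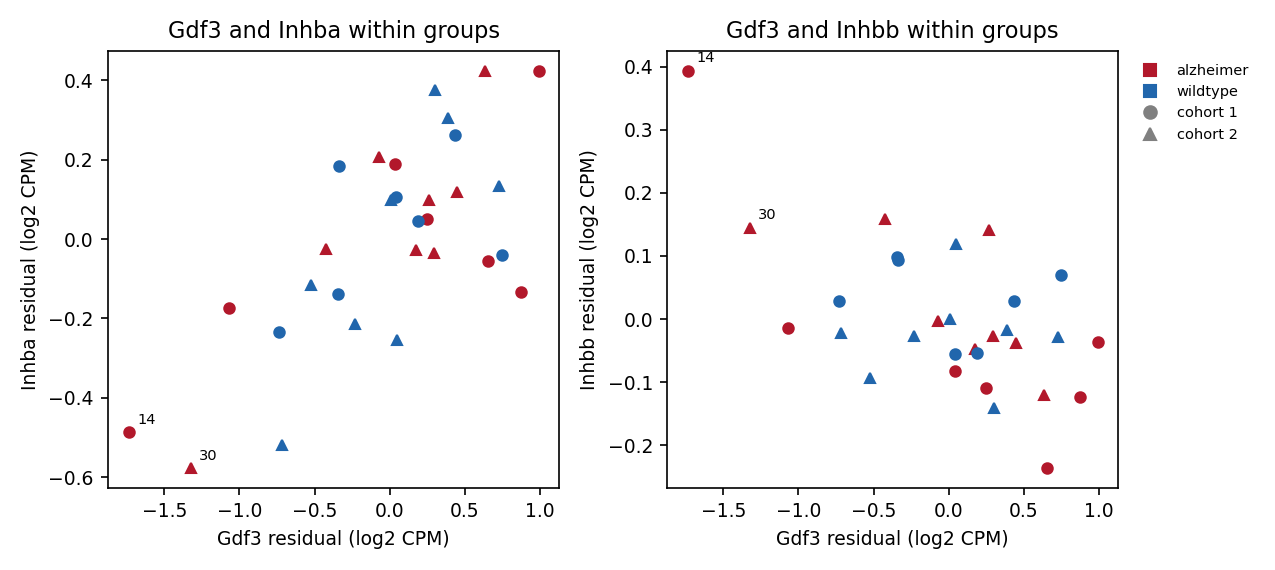
Residual log2 CPM of Inhba and of Inhbb (vertical axes) against residual log2 CPM of Gdf3 (horizontal axes) for 30 libraries, with alzheimer and wildtype in different colours and cohorts in different symbols. Inhba rises with Gdf3 (r = 0.71), and the fall of Inhbb (r = -0.61) leans on replicates 14 and 30.

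The genes whose residuals were most like those of Fst were Ror2, a receptor of Wnt5a (r = 0.77), Lrrfip1 (0.76) and Dglucy (0.70), out of 12546 other genes over 30 libraries. Those most like Gdf3 were Plscr1, a phospholipid scramblase (r = 0.85), Ptges, a prostaglandin E synthase (0.79), and Zbtb3 (0.78). In alzheimer libraries alone these values were 0.92, 0.85 and 0.90, and in wildtype libraries alone 0.77, 0.68 and 0.48. Gdf3 was near the limit of detection in wildtype libraries, and Ptges averaged 0.727 CPM over all libraries. The 3 genes most like Fst also had lower values in wildtype libraries, with Dglucy at 0.42 there and 0.85 in alzheimer libraries. Plscr1 was also among the 3 genes most like Inhba (r = 0.74). These are descriptions over libraries that share depth and dissection, and the highest of so many correlations is high by selection.

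Of 68 tested genes in 7 lists around the pathway, none of them among the 10, 7 were called for genotype, or 10.3%, near the 8.03% of all genes. Smad3, the transcription factor that activin receptors activate, averaged 189 ± 15.2 CPM in alzheimer libraries and 170 ± 9.85 CPM in wildtype libraries (SD, n = 15 each), a rise of 0.16 ± 0.033 (edgeR adjusted p = 0.0022). Pmepa1, a target gene that feeds back to hold Smad2 and Smad3, averaged 23.9997 ± 2.12 CPM in alzheimer libraries and 26.8 ± 2.21 CPM in wildtype libraries, and fell by 0.15 ± 0.042 on the log2 scale (edgeR adjusted p = 0.0181). Both calls held in cohort 2 alone (adjusted p = 0.0259 for Smad3 and 0.0275 for Pmepa1), and in cohort 1 alone neither passed, at 0.10 and -0.083. Acvr1c, the type I receptor related to Acvr1b that nodal and its relatives use, averaged 4.71 ± 0.946 CPM in alzheimer libraries and 3.76 ± 0.489 CPM in wildtype libraries, a rise of 0.34 ± 0.098 (edgeR adjusted p = 0.0255). Its call was lost in either cohort alone and without replicate 3, 17, 18 or 22 (adjusted p of 0.0562, 0.0564, 0.0678 and 0.0553).

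By list, the genotype calls were few and went both ways. Of activin and nodal ligands, 4 of 10 listed were tested and 0 called, with a median log2 fold change of 0.15, against 0.0020 over all genes. Most of the 10 averaged under 1 CPM in both genotypes, so this median rests in part on genes near the floor. Of receptors and coreceptors, 10 of 12 were tested, with Acvr1c higher and Eng lower and a median of 0.035. Eng, the endothelial coreceptor endoglin, averaged 28.8 ± 3.17 CPM in alzheimer libraries and 32.0 ± 4.94 CPM in wildtype libraries, a change of -0.15 (edgeR adjusted p = 0.0290) that was lost in either cohort alone, without the cohort term and without replicate 3, 15, 21, 22, 23 or 28. Of the endothelial markers 2 of 4 were called as lower, and all 4 were detected. Their sum ran from 202 to 260 CPM in alzheimer libraries and from 205 to 298 CPM in wildtype libraries, so the ranges overlapped. Their part in the Eng difference was not tested. Of extracellular antagonists and follistatin-like genes, 10 of 12 were tested and Spock1, a proteoglycan with a follistatin-like domain, was called as higher at 0.12 (edgeR adjusted p = 0.0278), with a list median of 0.011. The Spock1 call was lost in either cohort alone, when any of 8 single libraries was left out, and at 0.098 without the 3 libraries highest in choroid plexus markers (adjusted p = 0.103). Of Smads and their regulators, 13 of 16 were tested, with Smad3 higher, Pmepa1 lower and a median of 0.0086.

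Of TGF-beta and BMP ligands, 9 of 13 were tested and Bmp3, a ligand that opposes other BMPs, was called as higher at 0.28 (edgeR adjusted p = 0.0455). That call was lost when any of 18 single libraries was left out, in either cohort alone, and without the 3 libraries highest in choroid plexus markers (adjusted p = 0.0818). The list median was -0.026. Of BMP target genes 4 of 4 were tested and 0 called (median -0.015). Of 18 activity-regulated neuronal genes, the class to which Inhba belongs, 18 were tested and 1 was called. It was Ptgs2, the inducible cyclooxygenase, at 30.04 ± 2.92 CPM in alzheimer libraries and 25.5 ± 2.88 CPM in wildtype libraries, a rise of 0.24 ± 0.047 (edgeR adjusted p = 0.0013). It was 0.26 in cohort 1 alone (adjusted p = 0.157) and 0.24 in cohort 2 alone (adjusted p = 0.0194). The list median was 0.016, and the median residual correlation of the 18 genes was 0.016 with Inhba and -0.13 with Gdf3. Diet called 0 genes of these lists, and sex called Tgfbr2, the type II receptor of TGF-beta, at 0.18 (edgeR adjusted p = 0.0493) and Eng at 0.19 (adjusted p = 0.0323), female minus male. Both sex calls were lost in either cohort alone, and when any of 20 single libraries was left out for Tgfbr2 and any of 13 for Eng. They were also lost without the 3 libraries highest in choroid plexus markers, for Tgfbr2 with median-of-ratios scaling (adjusted p = 0.0501), and for Eng without the cohort term (adjusted p = 0.0576).

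For diet by sex, 5 of the 68 listed genes were called, or 7.35%, against 1.23% of all genes. Which of them to name was decided with those values in view. Of 18 activity-regulated genes 3 were called, all with a positive difference: the nuclear receptor genes Nr4a3 at 0.45 ± 0.10 (edgeR adjusted p = 0.0165) and Nr4a2 at 0.42 ± 0.10 (adjusted p = 0.0283), and the stress-induced Gadd45b at 0.38 ± 0.099 (adjusted p = 0.0456). The ligand Tgfb3 had 0.46 ± 0.11 (edgeR adjusted p = 0.0257), and the BMP target Id1 had -0.51 ± 0.13 (adjusted p = 0.0481). The median of the activity-regulated list was -0.0048, against -0.0044 over all genes. Each of the 5 kept its sign in either cohort alone and was called in neither. Left-out single libraries gave 1 to 6 called genes, with 1 without replicate 15, 18 or 22. Nr4a3 was called without each library in turn.

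**Figure D5:**
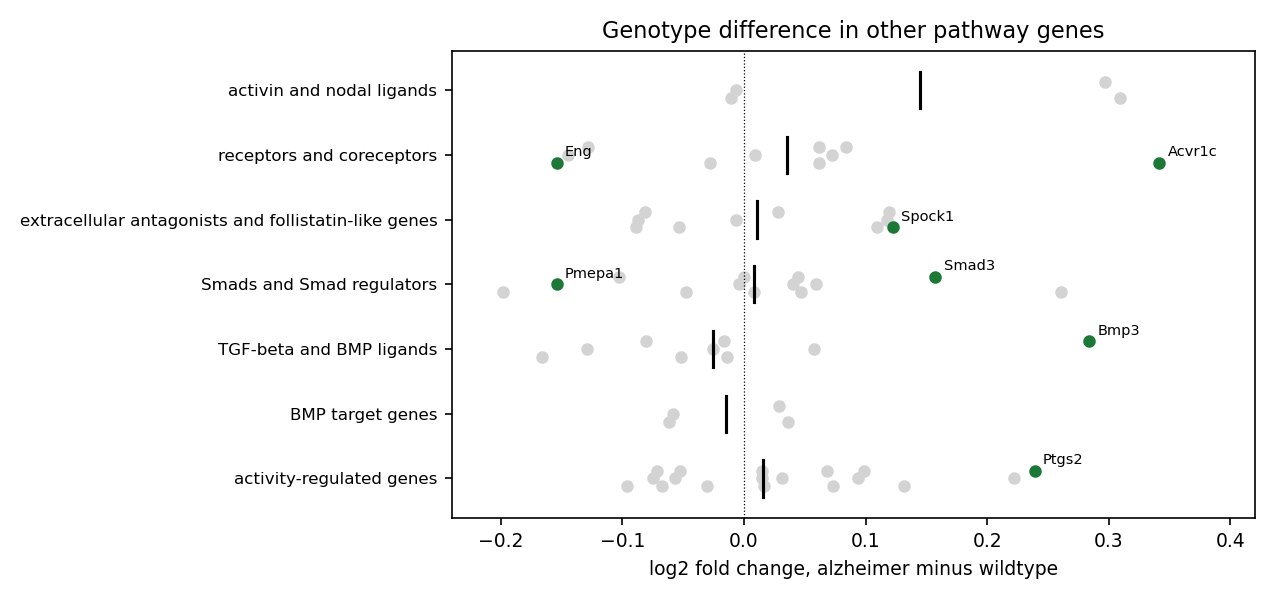
Log2 fold change, alzheimer minus wildtype (horizontal axis), of each tested gene of 7 lists around activin signalling, with called genes (adjusted p under 0.05) in green and named, the others in grey, and a bar at each list's median. List medians lie between -0.026 and 0.15, and the 7 called genes run from -0.15 to 0.34.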

How the data were processed

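Raw counts per gene symbol, deposited by the authors as 1 table, were used for 30 libraries. Every column was matched to a sample, and 0 further sample columns were present. Per the labels' protocols, RNA came from snap-frozen tissue through a lipid tissue column kit, poly(A) enrichment and an NEB Ultra II preparation. Per the submitters' processing notes, cutadapt and STAR 2.7.0a were used. For the counting tool, strand setting, genome build and annotation: not given in the sources used here. Totals of 13.9 to 31.4 M counts set the precision, and intervals from counts cover counting error only.

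Counts were fitted in R 4.3.3 with edgeR 4.0.16, with 1 coefficient per group and 1 for cohort, TMM factors and the default filterByExpr limits (minimum count 10, minimum total 15), which kept 12547 of 17455 genes and 9 of the 10 members. Contrasts weighted groups equally and were tested by the quasi-likelihood F test, two-sided. Adjusted p-values are Benjamini-Hochberg values over all genes tested, and a gene is called under 0.05. Scripts were tested on simulated data, the permutation p-value only on values from which no group means had been removed. Covariation used residuals of log2 CPM (prior count 2) and 100000 permutations, two-sided. DESeq2 1.42.0, limma-voom (limma 3.58.1), other scalings and filters, no cohort term, single cohorts and leaving out each library were the alternatives. Diet within each sex, leaving out the 3 libraries highest in choroid plexus markers, and the alternatives for the pathway lists were added after seeing the data.

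The members and gene lists were chosen with earlier results of these data known. Named genes are the 10 members, up to 4 called genes per list and contrast, the 3 genes most like Fst and Gdf3, and App. The gene most like Inhba, the neighbours, the markers and the list genes called for diet by sex were chosen after their values were seen. Promoters are from RefSeq, assembly GRCr8. No levels are compared between genes, since no transcript lengths were used.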

Additional observations from a re-analysis of the deposited data

Results flagged for a closer look

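Fst in male_wildtype_western had 7.64 CPM in replicate 27, far above the 4.27 to 4.75 CPM of the other 3 libraries of its group. The gap to the nearest library was 0.858 of the whole range of the group, past Dixon's critical value. It was the 1 flag in 60 groups of 4 libraries that were tested, where chance flags about 1 in 20. The genotype ranges of Fst are apart with or without this library, since it lies on the far side of the wildtype range.

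The western-minus-chow difference of Acvr1b differed between females and males by 0.25 on the log2 scale in the test of the difference itself, female minus male (edgeR adjusted p = 0.0236). The sign was negative in males and positive in females, and neither sex alone passed the test in edgeR.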

How the results depend on the processing

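Members called for genotype numbered 1 of 7 in the main fit. The count was also 1 in the other fits except cohort 1 alone, where each female western group has 1 library. The number tested was not 7 in every fit, since Fstl3 was tested as well with no filter. Members called for diet by sex numbered 1 in the main edgeR fit. The count was 2 with no filter, with DESeq2 and with limma-voom, and 0 in cohort 1 alone, in cohort 2 alone and without the 3 libraries highest in choroid plexus markers. Leaving out single libraries gave 0 to 2, with 2 without replicates 14 and 28. Members called for diet in males numbered 0, against 1 with no filter, DESeq2 and limma-voom, and 0 to 1 when single libraries were left out, with Acvr1b at adjusted p-values of 0.0191 to 0.161. Pairs of members that covaried by Pearson's r numbered 2, 0 in wildtype libraries alone, and 3 without the cohort term, where Inhba with Acvr2b joined (r = -0.52, permutation adjusted p = 0.0430). The causes were not tested, though single cohorts and strata hold fewer libraries.

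The 81 member values gave 3136 combinations of value and alternative setting. In these 0 called values turned sign, 8 lost and 15 gained a call, and 52 moved by more than their error. Values that were not called changed sign in 148. The Acvr1b genotype call held without each library in turn. Of the 68 tested list genes outside the 10, 7 were called for genotype, or 10.3%, against 8.03% of all genes. The count was 3 in cohort 2 alone and 4 without replicate 3 or 22. No paired analysis was possible because the labels number the libraries in 1 running series, so no groups share a replicate number. Depth limits Gdf3 in wildtype, Fstl3 and Bambi, which had few counts.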

Other observations

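Neighbours of Fst, Gdf3 and Acvr1b along the chromosome, by RefSeq gene order in GRCr8, were set beside them, with 5 tested genes on each side. Of the 10 genes around Fst, 1 was called for genotype, the adjacent Mocs2, a molybdopterin synthase gene, at -0.11 (edgeR adjusted p = 0.0103), and the range was -0.11 to 0.056. Of the 10 genes around Gdf3, 0 were called in edgeR and the range was -0.082 to 0.44. The highest was the adjacent Slc2a3, the neuronal glucose transporter GLUT3, at 0.44 ± 0.16 (edgeR adjusted p = 0.0959), with 1.10 CPM in alzheimer libraries and 0.808 CPM in wildtype libraries. Of the 10 genes around Acvr1b, 1 was called, Slc4a8, a sodium bicarbonate transporter of neurons, at 0.22 (edgeR adjusted p = 0.0013), and the range was -0.30 to 0.22. Over all genes 8.03% were called.

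Fstl1 residuals were positive against 17 of 18 activity-regulated genes, with a median correlation of 0.33, and Acvr1b residuals against 14 of 18, with a median of 0.35, over 30 libraries that share depth. The median over all genes was -0.0034 for Fstl1 and -0.0098 for Acvr1b. Inhba, the member known as induced by activity, had 13 of 18 and a median of 0.016.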
